A study of Papio hamadryas with 11 samples.

Results

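This account follows 52 genes of the cell division cycle in the livers of baboon fetuses, close to term, whose mothers were obese or controls. They were chosen by gene symbol, from a list of replication enzymes, cyclins and their kinases, mitotic genes and cell cycle inhibitors. A gene counted as measured when a probe annotated to it had a detection p under 0.05 on at least 4 of the 11 arrays, and the passing probe with the highest mean stood for it. By this rule 29 of the 52 genes were measured, among 10619 features in all. Each fetus (Papio hamadryas, 165 days, 0.9 of gestation) gave 1 liver RNA sample, hybridised to 1 array of a human Illumina BeadChip. The arrays lay on 2 slides, told apart by the prefix of the array names. The maternal obese group held 3 females and 2 males (MO1 to MO3 and MO4 and MO5), and the control group 3 females and 3 males (CON1 to CON3 and CON4 to CON6). How maternal obesity was brought about is not given in the sources used here. All 5 maternal obese arrays and the male controls CON5 and CON6 lay on slide 2, and CON1 to CON4 on slide 1, so among females slide and maternal obesity cannot be told apart.

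Cells enter division when D-type cyclins with CDK4 or CDK6 relieve the block that the retinoblastoma protein RB1 sets on E2F factors. Cyclin E or A with CDK2 then drives S phase, in which the MCM helicase unwinds DNA, RRM1 and TK1 supply deoxynucleotides and TOP2A untangles the copies. CDK1 with cyclins A and B starts mitosis, the spindle checkpoint holds it back, and the anaphase-promoting complex with CDC20 ends it. CDKN1A (p21) and CDKN1B (p27) inhibit the cyclin-dependent kinases. The fetal liver both grows by division of its hepatocytes and houses blood formation, which is rich in dividing cells. In whole liver RNA a larger number of dividing cells and more RNA per dividing cell cannot be told apart.

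Between 10131 (MO4) and 13065 (CON4) of 48803 probes were detected per array. Median intensities were 69.7 to 80.3 on slide 2 and 62 to 65.6 on slide 1. Of 20 hepatocyte markers 16 were measured, albumin among them on all arrays, and 11 of 25 erythroid and 9 of 16 granulocyte markers were measured. RNA of hepatocyte and of blood cell genes was thus present. Whether the latter came from blood formation in the liver or from circulating blood was not tested. The erythroid genes KLF1, HEMGN, CA1 and EPOR and the granulocyte genes AZU1, DEFA4, S100A8 and CEACAM8 were detected on 0 arrays. The probes were designed on human sequence, and baboon transcripts may bind them less well, so no level of one gene is set against that of another. Levels are given as normalized log2 intensities, and differences on the same log2 scale.

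Much of the classical proliferation panel was not measured. Of the 23 genes left out, CDKN2C was not listed by the probe annotation and was not analysed here, and 18 had a probe detected on 0 arrays. These 18 held the helicase subunit MCM2 and its loader CDT1 with the loader's inhibitor GMNN, the ribonucleotide reductase subunit RRM2 and the antisense gene TYMSOS. They also held the cyclins CCNB1, CCNB2, CCNE1 and CCNE2, the kinase CDK6, the phosphatase CDC25B, the factor E2F1, the checkpoint kinases BUB1 and BUB1B, and the mitotic genes BIRC5, CENPA, CENPF and KIF11. The other 4 were detected on 2 arrays each. These were the sliding clamp PCNA on CON1 and CON2, the helicase loader CDC6 on MO4 and CON1, the helicase cofactor GINS2 on CON1 and CON3, and the kinesin KIF20A on MO2 and CON1. Just inside the rule, the Aurora kinase AURKB was detected on 5 arrays (MO2, MO4, CON1, CON4 and CON5) and the checkpoint gene MAD2L1 on 7, 2 maternal obese and 5 control. The proliferation antigen gene MKI67 and the Aurora kinase AURKA passed on 8 arrays each, 4 maternal obese and 4 control, and the other 25 genes on all 11. Of the measured genes, 7 belonged to S phase and DNA replication, 5 were cyclins and kinases of G1 and S phase, 14 belonged to G2 and mitosis and 3 were inhibitors.

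The genes spread more between fetuses than most features did. Their median SD over the 11 arrays was 0.397, against 0.274 over all 10619 features. The high ends of that spread fell on a few arrays. MO4 had the highest level of 10 genes, MO2 of 4, CON1 of 6, CON5 of 4 and CON6 of 3. Over all features the share with the highest level on MO4 was 16.3%, on MO2 10.2%, on CON1 5.85%, on CON5 6.44% and on CON6 15%. The low ends fell on CON3 for 7 genes, CON6 for 6, CON2 for 5 and CON4 for 4. Over all features the share with the lowest level on CON3 was 16.1%, on CON6 9.74%, on CON2 8.46% and on CON4 20%.

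**Figure D1:**
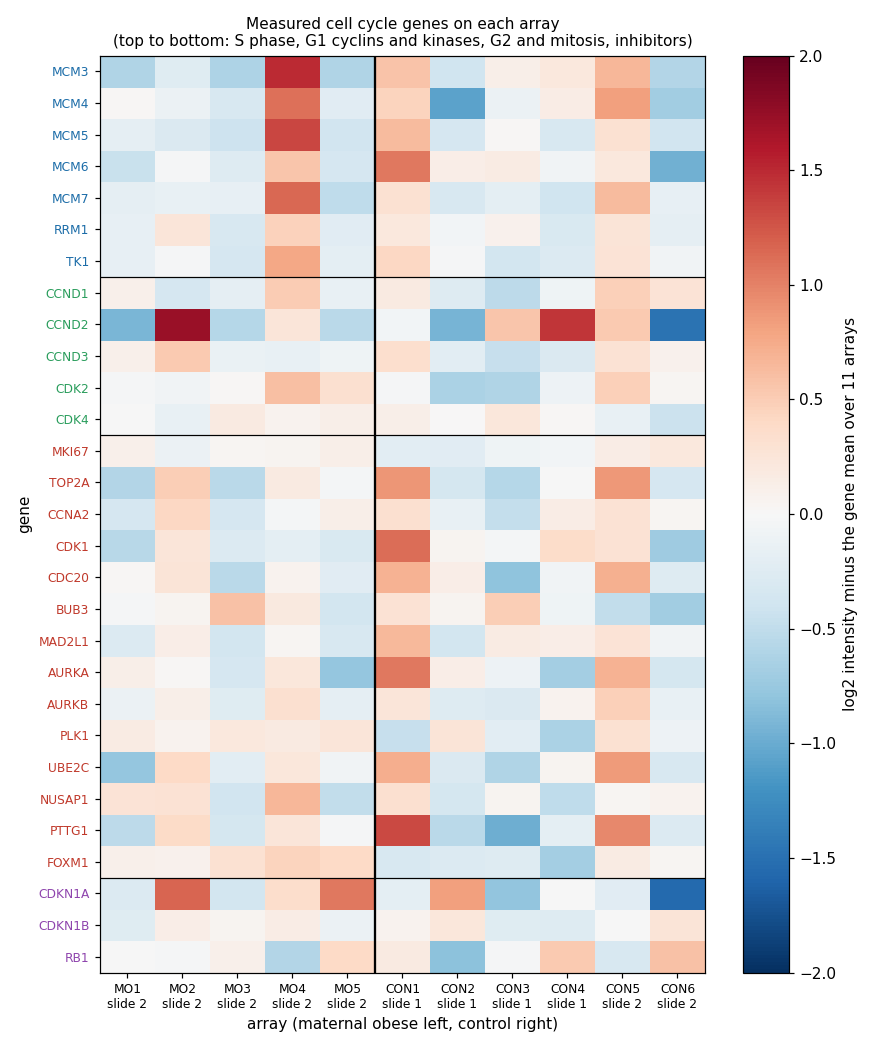
Level of each of the 29 measured genes (rows, grouped by role) on each array (columns, maternal obese left of control), as the log2 difference from that gene's mean over the 11 arrays. MO4 stands out in the S phase rows, where it is highest for 6 of 7 genes, and CON1 and CON5 in the mitotic rows.

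Among the S phase genes 1 maternal obese male stood apart. MCM5, a subunit of the replicative helicase, measured 6.24, 6.14, 6.02, 7.77 and 6.04 on MO1 to MO5, against 7.07, 6.09, 6.45, 6.10, 6.74 and 6.04 on CON1 to CON6. MO4 was the highest array of both groups, and the other 4 maternal obese arrays lay within the control range or just below it. MCM3, the S phase gene with the largest SD over the arrays, measured 5.62, 5.99, 5.60, 7.72 and 5.63 in the maternal obese livers, against 6.79, 5.83, 6.34, 6.43, 6.90 and 5.64 in the controls. MO4 was again highest and MO1, MO3 and MO5 were the lowest of all arrays. MCM7, another subunit of the helicase, stood at 8.26, 8.29, 8.27, 9.58 and 7.93 in maternal obese livers, against 8.74, 8.12, 8.23, 8.04, 9.07 and 8.27 in controls. Here too MO4 was highest, followed by CON5 and CON1, and the groups overlapped.

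MO4 was the highest array for MCM4, TK1 and RRM1 too. TK1, the thymidine salvage kinase, measured 6.72, 6.86, 6.54, 7.65 and 6.69 in maternal obese livers, against 7.30, 6.86, 6.52, 6.61, 7.15 and 6.81 in controls. RRM1, the large subunit of ribonucleotide reductase, measured 9.47, 9.87, 9.30, 10.09 and 9.40 in maternal obese livers, against 9.84, 9.58, 9.72, 9.32, 9.90 and 9.45 in controls. For both genes CON1 and CON5 were the highest controls. MCM6 differed, since its highest array was CON1 at 8.05 and MO4 came next at 7.55. The mean of the 7 S phase genes, each centred on its own mean over the arrays, was 0.98 on MO4, and -0.349 to -0.085 on the other maternal obese arrays. In controls it was 0.519 on CON1, 0.452 on CON5 and -0.434 to -0.043 on the other 4.

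The mitotic genes put other arrays at the top. PTTG1 (securin), which holds back the separation of sister chromatids and had the largest SD of the mitotic genes, measured 7.61, 8.51, 7.77, 8.37 and 8.10 in maternal obese livers, against 9.44, 7.59, 7.15, 7.93, 9.09 and 7.86 in controls. CON1 and CON5 were highest, MO2 and MO4 followed, and CON3 was lowest. TOP2A, the decatenating topoisomerase, measured 6.60, 7.68, 6.65, 7.36 and 7.14 in maternal obese livers, against 8.06, 6.82, 6.61, 7.18, 8.05 and 6.85 in controls. Its top 4 arrays were those of PTTG1. UBE2C, a ubiquitin-conjugating enzyme of the anaphase-promoting complex, measured 6.11, 7.28, 6.66, 7.11 and 6.81 in maternal obese livers, against 7.61, 6.60, 6.28, 6.94, 7.74 and 6.56 in controls. It had the same 4 arrays at the top, and the groups overlapped for all 3 genes.

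CDK1, the mitotic kinase, measured 5.99, 6.78, 6.26, 6.35 and 6.23 in maternal obese livers, against 7.65, 6.59, 6.49, 6.91, 6.83 and 5.83 in controls. CON1 was highest and CON6 lowest, so the control range enclosed the maternal obese one. MKI67 moved little, at 5.54, 5.33, 5.49, 5.50 and 5.57 in maternal obese livers and 5.23, 5.21, 5.36, 5.38, 5.60 and 5.65 in controls. It was highest on CON6, where CDK1 was lowest, and next on CON5. Its lowest values, on CON2 and CON1, came from arrays where MKI67 was not detected, and it was not detected on MO4 either. The mean over the 14 mitotic genes was 0.203 on MO2, 0.189 on MO4 and -0.176 to -0.139 on MO1, MO3 and MO5, against 0.472 on CON1, 0.4 on CON5 and -0.265 to -0.152 on the other controls.

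**Figure D2:**
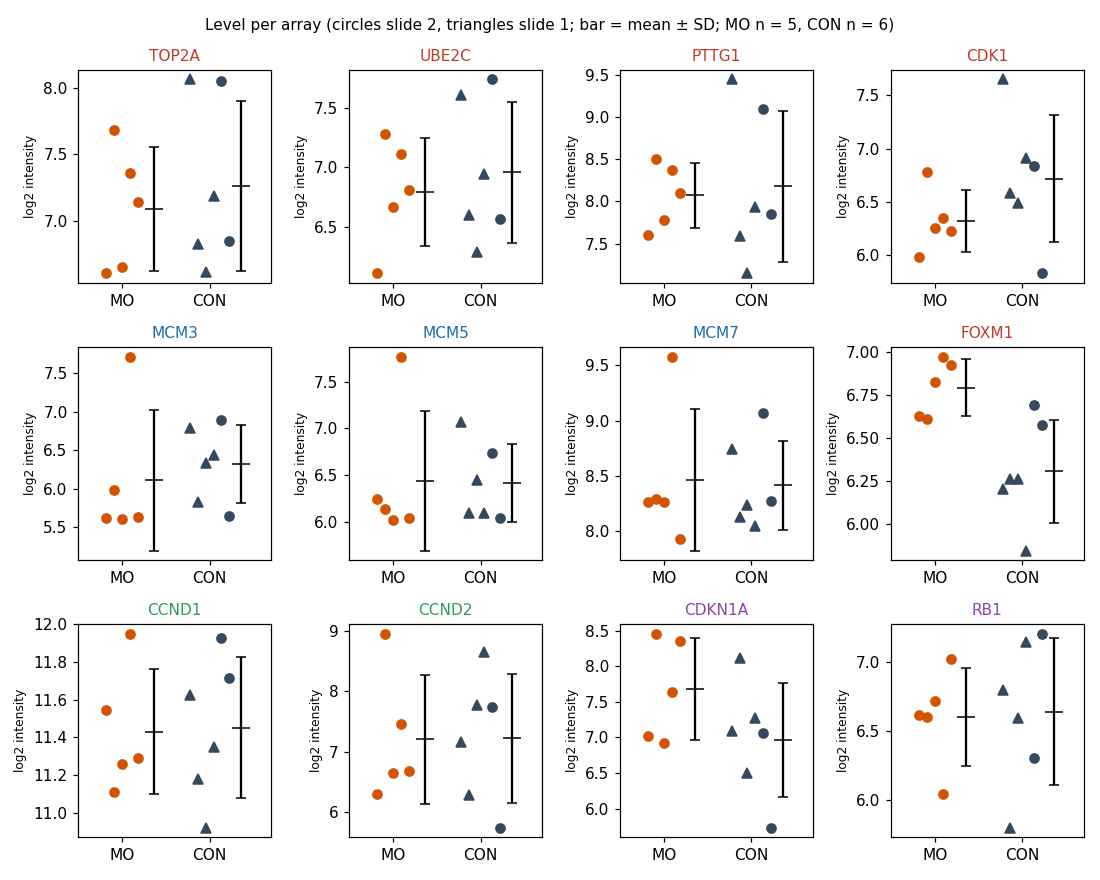
Normalized log2 intensity of selected genes on each array, maternal obese left of control, with circles for slide 2, triangles for slide 1 and bars for the mean ± SD (n = 5 and n = 6). FOXM1 is 6.61 to 6.97 in maternal obese livers, and CON5 and CON6 on slide 2 are the highest controls at 6.69 and 6.57.

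Of the G1 genes, the D-type cyclin CCND2 was the most variable of all 29. It measured 6.30, 8.95, 6.64, 7.46 and 6.67 in maternal obese livers, against 7.15, 6.28, 7.76, 8.64, 7.74 and 5.75 in controls. MO2 was highest and CON6 lowest, a range of 3.2, and the groups overlapped. MO2 also stood apart in the stellate and matrix markers, with a mean of 2.424 where the other 10 arrays were at -0.806 to 0.49, and the part of this in CCND2 was not tested. CCND1 ranged between 11.11 and 11.95 in maternal obese livers and between 10.92 and 11.93 in controls. The inhibitor CDKN1A measured 7.02, 8.45, 6.92, 7.64 and 8.35 in maternal obese livers, against 7.09, 8.11, 6.50, 7.27, 7.05 and 5.73 in controls. MO2 and MO5 were highest, CON2 came next and CON6 was lowest. RB1 ran between 6.04 (MO4) and 7.02 (MO5) in maternal obese livers and between 5.80 (CON2) and 7.21 (CON6) in controls.

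The first comparison asked how these genes differed between livers of fetuses from obese and control mothers. None of the 29 was called by limma at an adjusted p of 0.05 over all features (0 members, and 0% of the 10619 features). At an unadjusted p under 0.05 the count was 1 gene, FOXM1, which is 3.45% of the 29, where 13.2% of all features passed. No gene had groups that did not overlap, against 1.15% of all features higher and 0.245% lower in maternal obese livers. Of the 29 genes 13 lay above 0 (57.8% of all features did) and 16 below (42.2% did), with a median difference of -0.013 where the median of all features was 0.046. These p-values measure the spread between these fetal samples.

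FOXM1, a transcription factor that drives mitotic genes, measured 6.63, 6.61, 6.82, 6.97 and 6.93 in maternal obese livers, against 6.20, 6.26, 6.26, 5.84, 6.69 and 6.57 in controls. The lowest maternal obese value lay below that of CON5 and above those of the other 5 controls. Its means were 6.79 ± 0.17 (SD, n = 5) in maternal obese livers and 6.30 ± 0.30 (SD, n = 6) in controls, a difference of 0.49 (SE 0.15) with limma's adjusted p = 0.311. On slide 2 alone, against CON5 and CON6, the difference was 0.16.

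The other genes with the smallest p in the higher direction did not pass either. CDKN1A differed by 0.71 (SE 0.39, adjusted p = 0.421), the mitotic kinase PLK1 by 0.32 (SE 0.17, adjusted p = 0.407) and the S phase kinase CDK2 by 0.31 (SE 0.20, adjusted p = 0.486) in limma's test. The checkpoint gene BUB3 stood at 0.16 (SE 0.22) and MKI67 at 0.08 (SE 0.11). On slide 2 alone CDKN1A stood at 1.28 (adjusted p = 0.572), BUB3 at 0.68, PLK1 at 0.07, CDK2 at -0.09 and MKI67 at -0.14. A second passing probe of BUB3 gave -0.49 over all arrays, opposite to the probe used, and one of CDK2 gave 0.05. One of NUSAP1 gave -0.45 where the probe used gave 0.13, with an r of -0.02 between the probes. One of PTTG1 gave -0.42 where the probe used gave -0.11, with an r of 0.68.

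In the lower direction the smallest p belonged to MAD2L1, which differed by -0.29 (SE 0.17), CDK1 by -0.40 (SE 0.26) and AURKA by -0.27 (SE 0.29), with limma's adjusted p at 0.451, 0.484 and 0.669. MAD2L1 was detected on only 2 maternal obese and 5 control arrays. MCM6 stood at -0.19 (SE 0.29), TOP2A at -0.18 (SE 0.30) and CDC20, the activator of the anaphase-promoting complex, at -0.15 (SE 0.26). On slide 2 alone CDK1 stood at -0.01 and MCM6 at 0.27, while MAD2L1 stood at -0.26, AURKA at -0.32, TOP2A at -0.36 and CDC20 at -0.31. RRM1 (-0.01), CCND1 (-0.02), CDKN1B (-0.01) and RB1 (-0.04) lay close to 0, although CCND1 stood at -0.39 on slide 2 alone.

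The precision bounds what these arrays could show. Over all 11 arrays, without slide in the fit, the 95% interval of the difference stayed within -1 and 1 for 26 of the 29 genes. It stayed within -0.5 and 0.5 for 9. It was narrowest for MKI67, which was detected on 8 arrays, with a width of 0.49. It was widest for CCND2, with a width of 2.34. On slide 2 alone the interval also reached past -1 or 1 for TOP2A, MCM4, MCM5, MCM6, MCM7, AURKA, BUB3, UBE2C and PTTG1. By role, 5 of 14 mitotic genes lay above 0 (median -0.086), 4 of 7 S phase genes (median 0.017), 3 of 5 G1 genes (median 0.078) and 1 of 3 inhibitors (median -0.013). Erythroid markers had 7 of 11 above 0 (median 0.139) and granulocyte markers 3 of 9 (median -0.069) in the same comparison. On slide 2 alone 10 of the 29 genes lay above 0 and 19 below, and 7 had turned sign. Scaling the arrays by their medians in place of quantile normalization moved the median of all features to -0.128 and that of the 29 genes to -0.187.

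**Figure D3:**
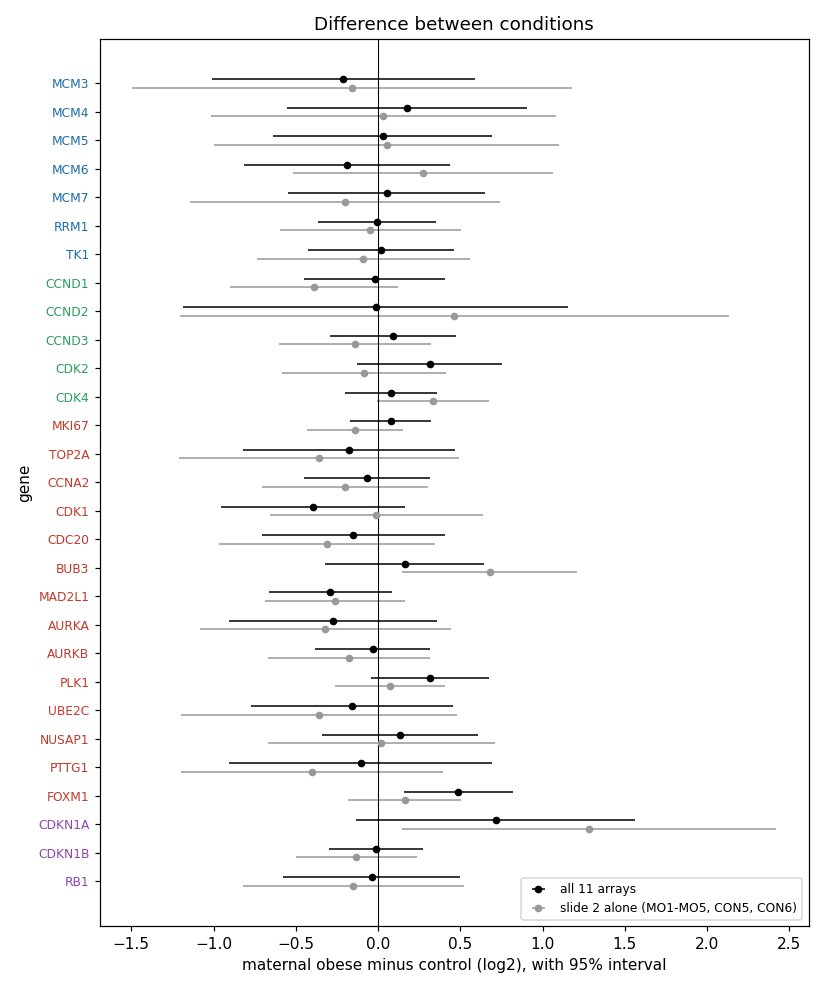
Log2 difference of each measured gene, maternal obese minus control, with its 95% interval, over all 11 arrays (black) and on slide 2 alone (grey). Over all 11 arrays the interval of FOXM1 alone lies off 0, at 0.16 to 0.82, and its value on slide 2 alone is 0.16.

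Cell cycle genes outside the 52 were read from 3 further lists. Of 43 other replication genes 21 were measured, with 12 above 0, 9 below and a median of 0.009. Of 70 other mitotic genes 33 were measured, with 9 above 0, 24 below and a median of -0.122. Of 40 other inhibitors, pocket proteins, E2F and checkpoint genes 26 were measured, with 11 above 0, 15 below and a median of -0.045. None of the 80 genes measured on these lists was called by limma. An unadjusted p under 0.05 was reached by 5 of the 80 (CENPM, CDK7, CHEK1, E2F4 and ORC3), a smaller share than the 13.2% of all features that passed. The smallest unadjusted p belonged to CENPM, a centromere protein, at 0.55 (SE 0.18, adjusted p = 0.311).

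The slides were compared with maternal obesity as a covariate, so the estimate rests on CON5 and CON6 against CON1 to CON4, which also differ in sex. limma called 9.12% of all features (326 higher and 642 lower on slide 2) and 0 of the 29 genes. The count over all features was 968, and 48 without CON6, 209 without CON5 and 538 without CON3. At an unadjusted p under 0.05 the members numbered 6 of 29, or 20.7%, where 27.4% of all features passed. BUB3 averaged lower on slide 2, with a difference of -0.77 (SE 0.24, adjusted p = 0.0628). It measured 6.42, 6.50, 7.03, 6.65 and 6.07 on MO1 to MO5 and 5.96 and 5.75 on CON5 and CON6, against 6.73, 6.50, 6.93 and 6.36 on slide 1. Taking the mean of its detected probes gave -0.91 (adjusted p = 0.0166), and leaving out MO3 gave an adjusted p of 0.0431, both past the threshold in limma's test.

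FOXM1 stood at 0.49 (SE 0.17, adjusted p = 0.082), at 6.57 to 6.97 on all 7 arrays of slide 2 and 5.84 to 6.26 on slide 1. These ranges did not overlap, which held for 7.98% of all features in this direction. MKI67 differed by 0.33 (SE 0.13, adjusted p = 0.12), CDK2 by 0.60 (SE 0.24, adjusted p = 0.137) and the G1 kinase CDK4 by -0.38 (SE 0.14, adjusted p = 0.116), none past limma's threshold. MCM6 stood at -0.70 (SE 0.38, adjusted p = 0.266), and at -1.28 without CON5 and -0.11 without CON6. Of the 80 genes measured on the 3 further cell cycle lists, 7 were called between slides, or 8.75% where 9.12% of all features were, with limma's adjusted p at 0.0092 to 0.0361. The origin recognition subunit ORC1 (0.80), the chromosomal passenger INCENP (0.73) and cyclin CCNH (0.51) were higher on slide 2. ORC3 (-0.79), the anaphase-promoting subunit ANAPC13 (-1.05), cyclin CCNG2 (-1.35) and the ubiquitin ligase subunit SKP2 (-1.30) were lower. Of the 16 measured hepatocyte markers 12 lay below 0 on slide 2 (median -0.259) and 5 were called lower (APOA2, APOH, FGB, FGG and HP), and their part in the slide values of the cell cycle genes was not tested.

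The effect of maternal obesity was also set out by sex. limma called 0 members and 0% of all features in females, in males and for the difference between the sexes. Over all features the count in females was 341 without CON4 and 290 with array weights, and that for the difference between the sexes was 15 without CON4. In females 1 of 7 S phase genes lay above 0 (median -0.184), and in males 7 of 7 (median 0.347), against a median over all features of 0.071 in females and 0.053 in males. The male count rests on MO4: without it 0 of 7 lay above 0 (median -0.25), since MO5 lay below the male control mean for all 7, and without CON6 the median was 0.136. MCM6 measured 6.55, 6.97 and 6.74 in maternal obese females, against 8.05, 7.13 and 7.15 in control females, without overlap. In males it measured 7.55 and 6.65, against 6.92, 7.20 and 6.04. The female minus male difference of its effects was -1.08 (SE 0.52) with limma's adjusted p = 0.698, and that of MCM5 was -1.02 (SE 0.58, adjusted p = 0.75). Without MO4 these values were -0.63 for MCM6 and -0.15 for MCM5, and without MO5 they were -1.53 and -1.88.

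In females FOXM1 stood at 0.45 (adjusted p = 0.37), CDK2 at 0.40, MKI67 at 0.18, MCM6 at -0.70 (adjusted p = 0.417), CDK1 at -0.57 and MAD2L1 at -0.32 in limma's fit. With slide as a covariate, which draws the slide difference from the male controls alone, FOXM1 stood at -0.34, CDK2 at 0.04, MKI67 at -0.06, MCM6 at -0.40, CDK1 at 0.01 and MAD2L1 at -0.29. Without CON1 MCM6 stood at -0.39, CDK1 at -0.20 and MAD2L1 at -0.07. FOXM1 and MCM6 did not overlap between the female groups, a share of 3.45% in each direction where 14.8% of all features were higher and 11.2% lower without overlap. In males FOXM1 stood at 0.58 (adjusted p = 0.547), CDKN1A at 1.31 (adjusted p = 0.563) and CDK4 at 0.28. These 3 genes did not overlap between the male groups, or 10.3% of the 29 where 14.9% of all features did the same. RB1 stood at -0.35 in males, and at 0.14 without MO4 and -0.84 without MO5. CDK4 stood at -0.10 in males under median scaling, and FOXM1 at 0.23 under median scaling and 0.32 without CON4. At an unadjusted p under 0.05 the members numbered 0 in females, 2 in males and 0 for the difference between the sexes, where 13.5%, 8.86% and 7.35% of all features passed.

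Between female and male fetuses, with maternal obesity as a covariate, limma called 0 of the 29 genes and 0.0471% of all features. At an unadjusted p under 0.05 they numbered 2, CDK2 and BUB3, or 6.9% where 10.9% of all features passed. CDK2 differed by -0.53 (SE 0.15, adjusted p = 0.321) and BUB3 by 0.52 (SE 0.18, adjusted p = 0.364), female minus male. CDK2 measured 7.14 to 7.80 in the 6 females and 7.67 to 8.38 in the 5 males, and the ranges overlapped. CCND1 stood at -0.38, MKI67 at -0.19, AURKA at 0.35 and CDK4 at 0.13. Slide 1 held 3 of its 4 arrays from females and slide 2 held 4 of its 7 from males, so slide moves with sex here.

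The genes were next followed across the 11 fetuses without regard to group. UBE2C and PTTG1 had the levels most like TOP2A of 10618 features. For UBE2C Pearson's r was 0.97 (permutation p = 1e-05, the smallest that 100000 resamples can give, adjusted p = 0.0531 over all features) and Spearman's rho 0.95 (permutation p = 2e-05). Without CON1 and CON5, the arrays farthest from the median of TOP2A, r was 0.93, and on slide 2 alone it was 0.96 (exact permutation p = 0.000397). For PTTG1 r was 0.96 (permutation p = 1e-05, adjusted p = 0.0531) and rho 0.95 (permutation p = 3e-05), with 0.90 without those arrays and 0.99 on slide 2. AURKB (r = 0.87), CCNA2 (0.87), CDC20 (0.85) and CDK1 (0.74) followed, each with an adjusted permutation p of 0.368 or more. No member passed the threshold of 0.05. For UBE2C and PTTG1 the adjusted p was set by the number of resamples, so it could not decide whether they passed.

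Of the 28 other genes, 14 had an r within the top 5% of all features, which begins at 0.55. By role these were 8 of 13 mitotic genes, 5 of 7 S phase genes, 1 of 5 G1 genes and 0 of 3 inhibitors. Part of this count rested on CON1 and CON5. Without them r was 0.89 for CCNA2, 0.78 for AURKB and 0.63 for CDC20, but 0.51 for CDK1, 0.46 for MAD2L1 and -0.01 for AURKA. The 5 S phase genes then stood at 0.34 (MCM6) to 0.52 (RRM1), and the G1 gene CCND3 at 0.52. The top 5% was not recomputed without these arrays. Over all 11 arrays the lowest r of any role belonged to BUB3 (-0.21), CDK4 (-0.16) and MKI67 (-0.15), with permutation p-values of 0.533, 0.651 and 0.652 and rho of -0.20, -0.25 and -0.08. Under median scaling these r were 0.02, 0.12 and 0.07. MKI67 was not detected on CON1, the array on which TOP2A was highest.

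Over all 11 arrays the S phase genes ran closely with each other and less closely with the mitotic genes. With MCM7, which was taken for comparison after its values had been seen, r was 0.93 for MCM5 (permutation p = 0.00118, rho 0.59 with permutation p = 0.0605), 0.90 for TK1 and 0.87 for MCM3. All had an adjusted p of 0.445 or more over all features. Without MO4 and CON5 these values were 0.83, 0.73 and 0.53, and that of MCM4 went from 0.81 to 0.44. The likeness of MCM3 and MCM4 thus rested in large part on those arrays. Of the mitotic genes that ran with TOP2A, CDK1 (0.21) and CCNA2 (0.20) had a low r with MCM7. The others were higher, with AURKB at 0.79, AURKA at 0.65, PTTG1 at 0.56, UBE2C at 0.55, CDC20 at 0.48 and MAD2L1 at 0.45. Without MO4 and CON5 CDK1 stood at 0.55 and CCNA2 at 0.21. AURKA then stood at 0.89 and MAD2L1 at 0.70, as high as most S phase genes. PTTG1 stood at 0.64, AURKB at 0.56, CDC20 at 0.51 and UBE2C at 0.47. The median r between pairs of S phase genes was 0.81 over 21 pairs and between pairs of mitotic genes 0.27 over 91 pairs. For pairs of an S phase and a mitotic gene it was 0.48 over 98 pairs. These medians were not recomputed without MO4 and CON5. These points share 11 arrays and genes are not independent of each other.

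**Figure D4:**
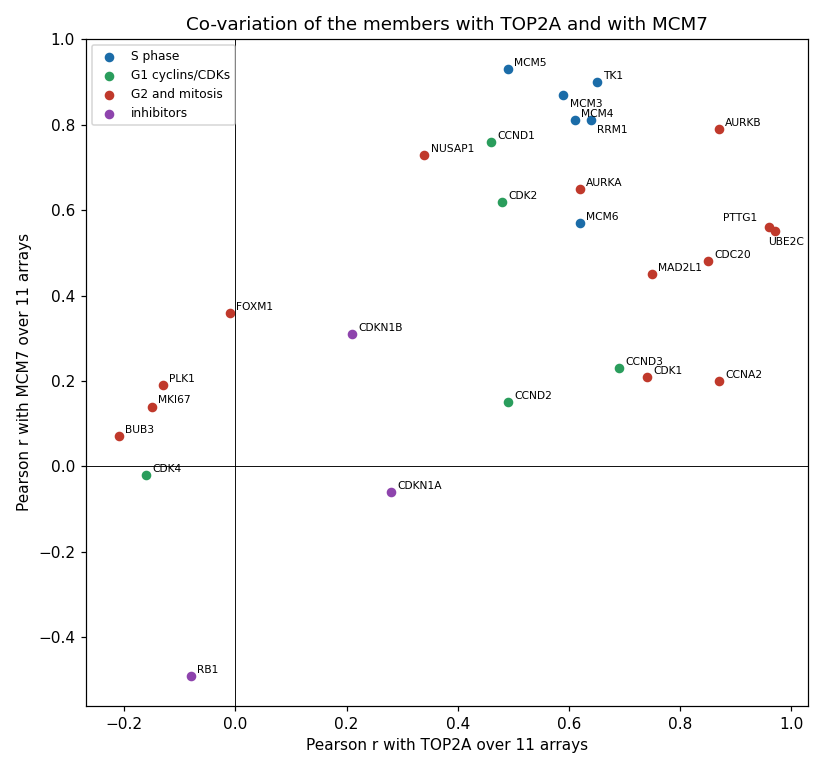
Pearson's r of each measured gene with TOP2A (horizontal axis) and with MCM7 (vertical axis) over the 11 arrays, coloured by role. UBE2C and PTTG1 lie at the right with 0.97 and 0.96, and MCM5, TK1 and MCM3 at the top with 0.93, 0.90 and 0.87.

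Of 9 cell type marker lists, 4 passed a permutation test of their correlation with TOP2A, the granulocyte, erythroid and megakaryocyte lists upwards and the hepatocyte list downwards. The mean of the 9 measured granulocyte markers, which include the myeloperoxidase gene MPO and the antimicrobial peptide gene CAMP, was 0.338 on MO2 and 0.266 on MO5 and -0.516 to 0.058 on the other maternal obese arrays. In controls it was 0.782 on CON1, 0.657 on CON5, 0.193 on CON4 and -0.671 to -0.321 on the others. Its r with TOP2A was 0.86 (permutation p = 0.00091, adjusted p = 0.00819 over 9 marker lists) and rho 0.85 (permutation p = 0.00148). Without CON1 and CON5 r was 0.68, and on slide 2 alone it was 0.78 (exact permutation p = 0.0442, not adjusted over the 9 lists). The markers did not all run alike. FCGR3B was lower on CON1 (5.57), where TOP2A was highest, than on MO1 (5.88), where it was lowest, and the other granulocyte markers were higher. PRTN3 was highest on CON6, at 5.77.

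The mean of the 11 erythroid markers, among them the globin genes HBB and HBG1 and the haem enzyme ALAS2, ran from -0.374 to 0.415 in maternal obese livers and from -0.816 to 0.828 in controls. Its r with TOP2A was 0.79 (permutation p = 0.00413, adjusted p = 0.0186) and rho 0.80 (permutation p = 0.00454), with 0.56 without CON1 and CON5. TRIM58 was lower on CON1 (6.46) than on MO1 (6.66), and the other erythroid markers were higher. TFRC (8.09) and CA2 (9.24) were lower on CON5, the next array in TOP2A, than on CON3 (8.87 and 10.12), and the others were higher. Megakaryocyte markers had an r of 0.68 (permutation p = 0.017, adjusted p = 0.0382) and rho 0.81 (permutation p = 0.00417). Only 5 of 11 were measured, and PF4, PPBP, ITGA2B and GP9 were detected on 0 arrays. TUBB1, THBS1 and VWF were higher on CON1, where TOP2A was highest, than on MO1, where it was lowest. GP1BA and GP6 were lower on CON1 than on MO1. Hepatocyte markers had an r of -0.70 (permutation p = 0.0161, adjusted p = 0.0382) and rho -0.77 (permutation p = 0.00773). Stellate and matrix markers had an r of 0.60 (permutation p = 0.0355, adjusted p = 0.0533) and rho 0.76 (permutation p = 0.00857), with an r of 0.84 without CON1 and CON5. B lineage markers had an r of 0.65 (permutation p = 0.0287, adjusted p = 0.0516) and rho 0.56 (permutation p = 0.0771), with an r of 0.11 without those arrays. On slide 2 alone the erythroid, megakaryocyte and hepatocyte lists had r of 0.65, 0.65 and -0.70, with unadjusted exact permutation p of 0.119, 0.104 and 0.0865. For MCM7 none of the 9 lists passed over the 11 arrays, with r of 0.32 for the erythroid and 0.22 for the granulocyte list and adjusted permutation p of 0.627 or more. On slide 2 alone MCM7 had an r of -0.78 with T and NK cell markers (exact permutation p = 0.0353) and -0.72 with endothelial markers (exact permutation p = 0.0435), both unadjusted, and 0.12 and 0.04 with erythroid and granulocyte markers. MO4, highest for MCM3, MCM4, MCM5 and MCM7, had means of -0.154 for erythroid and -0.25 for granulocyte markers. The part of blood-forming cells in the levels of the mitotic genes was not tested.

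**Figure D5:**
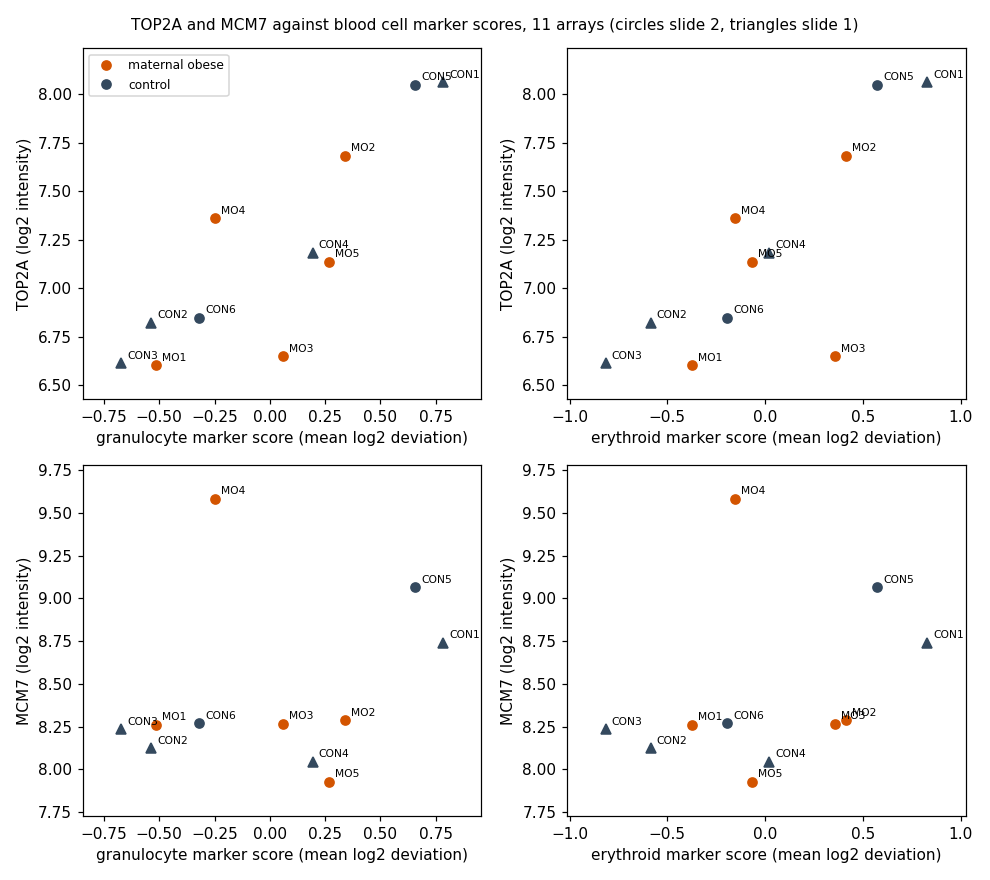
Level of TOP2A and of MCM7 on each array (vertical axes, log2 intensity) against the mean of the granulocyte and erythroid markers (horizontal axes), each marker centred on its own mean over the arrays. For TOP2A r is 0.86 and 0.79, and MO4 lies at the top for MCM7 with marker means of -0.25 and -0.154.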

How the data were processed

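Liver RNA of 11 fetuses was measured on 1 array each. Per the file headers, each array has 2 columns in the deposited table, 1 of linear probe intensity and 1 of detection p-values. The deposited series matrix matched log2 of the same intensities to within 5e-09, and the medians of its columns ran from 5.95 to 6.33. GenomeStudio and Partek are named in the submitters' processing notes, with versions not given in the sources used here. Normalization used neqc of limma 3.58.1 (R 4.3.3, offset 16, negative controls inferred from detection p-values, then quantile normalization to log2). A probe passed with detection p-values below 0.05 on 4 or more arrays, as 12065 did. The platform annotation gave 1 symbol to 28098 of 48803 probes, several to 13 and did not list 20692. With the highest-mean probe per gene this gave 10619 features, 8357 with a symbol.

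All features were fitted with lmFit and eBayes, with Benjamini-Hochberg adjustment over all of them and a threshold of 0.05. Contrasts within sexes and their difference came from 4 group means, and slide and sex were each tested with condition as a covariate. Correlations used two-sided permutation tests. The fits were tested on simulated data. Named genes were the main proliferation markers, the 6 per direction of lowest p for maternal obesity, 3 per direction elsewhere, the highest-mean and most variable gene per role, and the 3 highest and lowest correlations with TOP2A. Other members and pathway genes shown were picked after their values were seen. The members and lists were chosen with earlier results of these data known. Alternatives were other normalizations, filters, probe rules, covariates and leaving out each array. The number of arrays limits the precision.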

Additional observations from a re-analysis of the deposited data

Results flagged for a closer look

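Within each group every member was checked for an array far from the others, 58 checks in all, of which chance flags about 1 in 20. There were 5 such genes, and in each the array was MO4, a male on slide 2. MCM3 stood at 7.7174 on MO4 where the nearest maternal obese array was at 5.99, a gap of 0.816 of the group's range. MCM4 stood at 7.7383 (nearest 6.6679, gap 0.755), MCM5 at 7.7678 (nearest 6.2449, gap 0.872), MCM7 at 9.5808 (nearest 8.2874, gap 0.782) and TK1 at 7.6505 (nearest 6.8608, gap 0.711). The limit for 5 arrays is 0.71. All 5 are S phase genes, and their levels on 1 array are not independent of each other. MO4 also had the fewest detected probes, 10131.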

How the results depend on the processing

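The count of members called for maternal obesity was 0 under all 13 other settings and with each of the 11 arrays left out, with a smallest adjusted p between 0.099 and 0.999. It was 0 likewise within females, within males, for the difference between the sexes and for sex. Between slides the count was 1 (BUB3) with the mean of the detected probes of a gene, and 0 to 1 with 1 array left out (1 without MO3). The cause was not tested. Over all features the maternal obesity count was 0 in the reported fit, 7 with array weights and 1 with slide or with sex as a covariate or without CON5 or CON6. The slide count was 968 in the reported fit, 593 over features detected on all 11 arrays, 127 with sex as a further covariate and 382 among controls alone. Of 950 recomputed values of 46 named results, 910 moved by less than 1 SD or kept their call, 38 moved further and 2 passed the threshold, both for BUB3 between slides, while 46 changed sign. No paired analysis was possible because replicate numbers were given in accession order and pair no arrays. With 5 and 6 arrays, differences under 1 on the log2 scale lay inside many of the 95% intervals, and 22 listed genes were too dim to be measured.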
